A study of Mus musculus with 2 samples.

Results

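The Mir26 family was examined in the gastrocnemius, the large calf muscle, of adult male mice. Its members are the 3 microRNA genes Mir26a-1, Mir26a-2 and Mir26b, chosen by gene name among the 2202 microRNA genes in the files, and all 3 were found. Small RNA below 30 bases had been sequenced from 2 libraries, labelled biological replicates 1 and 2, of mice of the strain 5xFAD/CAST aged 8 to 10 months. The 5xFAD line is an amyloid model in which transgenes act mainly in neurons, and CAST mice are an inbred strain derived from wild ones. The labels do not state the transgene status of the sampled animals. Both libraries are of the same group and the same donor record, from separate tissue samples, and no label tells whether these are different animals. The spread between them may therefore be technical, and no condition could be compared with another.

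MicroRNAs are cut from hairpin precursors, and bases 2 to 8 of the mature strand, the seed, set most of its pairing with target messages. Each Mir26 hairpin lies within a gene for a small phosphatase that acts on the C-terminal domain of RNA polymerase II. miR-26a is known from mouse muscle cells to repress Ezh2, a histone methyltransferase that holds muscle genes silent, and to rise as myoblasts differentiate.

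The mature sequences are shown first because they decide which reads can be told apart by locus. They come from RefSeq on GRCm38.p6, which is the build of the files (mm10), and all 3 genes were matched by symbol. They are written 5′ to 3′ with the seed in capitals.
miR-26a-5p (Mir26a-1 and Mir26a-2): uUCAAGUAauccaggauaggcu
miR-26b-5p (Mir26b): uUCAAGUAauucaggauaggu
miR-26a-1-3p (Mir26a-1): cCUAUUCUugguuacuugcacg
miR-26a-2-3p (Mir26a-2): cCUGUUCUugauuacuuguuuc
miR-26b-3p (Mir26b): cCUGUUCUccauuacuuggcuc

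The 5p arm is the same molecule from both Mir26a loci. Counted from 1 at the 5′ end of miR-26a-5p, miR-26b-5p differs from it by C11U and C21U among 21 aligned bases and is 1 base shorter. The seed of the 5p arms, UCAAGUA, was carried by these 3 genes and by no other gene among 1738 mature entries of the table. The 3p arms are less alike. From miR-26a-1-3p to miR-26a-2-3p, 6 of 22 bases differ, and the first of these, A4G, lies within the seed. As a result miR-26a-2-3p and miR-26b-3p have the 3p seed CUGUUCU in common, which 4 genes in the table carry, these 2 included. By contrast miR-26a-1-3p has CUAUUCU, which no other gene in the table carries.

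The hairpins below, from the same table, place these arms, with both arms in capitals. Mir26a-1 (ENSMUSG00000065513.1) is at chr9:119031796-119031885, Mir26a-2 (ENSMUSG00000065430.1) at chr10:126995530-126995613 and Mir26b (ENSMUSG00000065468.1) at chr1:74394310-74394394, each on the plus strand of mm10.
Mir26a-1: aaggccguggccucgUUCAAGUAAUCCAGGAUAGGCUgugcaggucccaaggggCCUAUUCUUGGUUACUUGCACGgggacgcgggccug
Mir26a-2: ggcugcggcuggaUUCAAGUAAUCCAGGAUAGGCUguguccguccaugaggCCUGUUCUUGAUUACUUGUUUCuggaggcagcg
Mir26b: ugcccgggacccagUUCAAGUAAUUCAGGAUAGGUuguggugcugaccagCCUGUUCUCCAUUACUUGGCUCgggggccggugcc

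The longest run common to the hairpins of Mir26a-1 and Mir26a-2 has 25 bases. It begins with the first base of miR-26a-5p and goes 3 bases past its end. A read that starts there and is no longer than 25 bases thus has the same letters at both loci, and a read of 26 bases or more has not. Among stretches of 20 bases, 6 of 71 in Mir26a-1 and 6 of 65 in Mir26a-2 were common to these 2 hairpins, and all 6 begin within the 5p arm. The 3p arms of the 2 loci hold no such stretch. Mir26b had 0 of 66 stretches of 20 bases, and 0 of 68 of 18 bases, in another microRNA gene of the annotation at another place, on either strand. Its longest run in common with Mir26a-1 is 11 bases and with Mir26a-2 10 bases. Only microRNA hairpins were searched, not the whole genome.

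**Figure D1:**
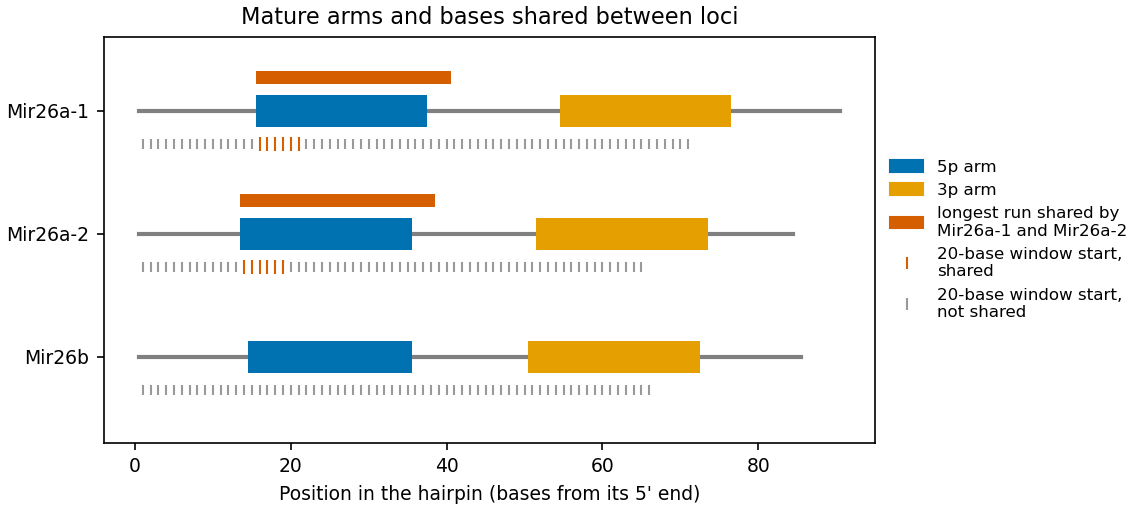
Position along each hairpin in bases from its 5′ end, with 1 row per gene: blue boxes are the 5p arms, yellow boxes the 3p arms, orange bars the 25-base run common to Mir26a-1 and Mir26a-2, and ticks the starts of 20-base stretches (orange where another microRNA gene holds the same letters). The orange ticks, 6 in each Mir26a gene, sit at the 5p arm, and Mir26b has none.

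By RNAfold, the hairpins had minimum free energies of -49.4 kcal/mol for Mir26a-1, -44.5 for Mir26a-2 and -43.5 for Mir26b, against a median of -32.0 over the 1005 hairpins of the table. Per base these are -0.55, -0.53 and -0.51 kcal/mol, against a median of -0.41. In the folds, 20 of the 22 bases of the 5p arm were paired in Mir26a-1, 19 of 22 in Mir26a-2 and 18 of 21 in Mir26b.

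The hosts are paralogs, and the annotation (GENCODE M21) puts every member in an intron on the strand of its host. Mir26a-1 lies in intron 5 of 7 of the transcript Ctdspl-201, 1543 bases after the exon upstream and 105343 bases from the start of that transcript. Mir26a-2 lies in intron 5 of 7 of Ctdsp2-202, 241 bases before the next exon. Mir26b lies in intron 4 of 6 of Ctdsp1-201, an intron of 564 bases, with 234 bases before it and 245 after it. The hosts thus place their microRNA at 105343, 16813 and 2801 bases from the transcript start. No member overlaps another microRNA gene. Host messages were not measured by these libraries.

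Replicate 1 held 6119818 reads and replicate 2 held 6632802. Of these, 1157420 and 1193393 were sense reads assigned to a microRNA gene. Reads aligned to several places made up 60.2% and 63.2% of the libraries and, by the layout of the files, entered no gene. A level below is in CPM, the reads of a gene after the sense reads in microRNA genes are scaled to a total of 1000000, and was not divided by gene length because each mature strand is of about the same length. Intervals are exact Clopper-Pearson 95% intervals and cover counting error only, since PCR copies are not independent molecules.

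Mir26b was the main source of counted family reads. It had 21447 reads in replicate 1 and 28613 in replicate 2, or 18530 CPM (18285 to 18777) and 23976 CPM (23702 to 24252). The mean was 21253 ± 3851 CPM (SD, n = 2), which placed it at rank 13 among the 321 genes detected at 2 CPM or more in both libraries. This is 438 times the median of the detected genes, 48.5 CPM. In this tissue RNA, more cells that make a microRNA and more of it per cell cannot be told apart.

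Mir26a-1 had 289 reads in replicate 1 and 11 in replicate 2, or 250 CPM (222 to 280) and 9.22 CPM (4.60 to 16.5). It was above the detection threshold in both libraries, but at different places in the order, rank 97 of all genes in replicate 1 and rank 245 in replicate 2. Mir26a-2 had 188 and 125 reads, or 162 CPM (140 to 187) and 105 CPM (87.2 to 125). Its rank was 115 and 123. Over both libraries the means were 129 ± 170 CPM for Mir26a-1 and 134 ± 40.8 CPM for Mir26a-2 (SD, n = 2). The order of the means was thus Mir26b, Mir26a-2, Mir26a-1. Mir26b lay above both Mir26a loci in each library, while the ranges of Mir26a-1 and Mir26a-2 overlapped, with Mir26a-1 the higher in replicate 1 and the lower in replicate 2.

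These values are levels of locus-assigned reads and not of the mature microRNAs. Because miR-26a-5p has the same letters at both loci, a read of exactly its sequence aligns to both. By the layout described above, such a read entered no gene and is not in the Mir26a levels. The share of such reads among those aligned to several places is not known, so the Mir26a levels may be too low by an unknown amount. The files give a count per gene and not per base, so the arm from which the counted Mir26a reads came is not known.

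**Figure D2:**
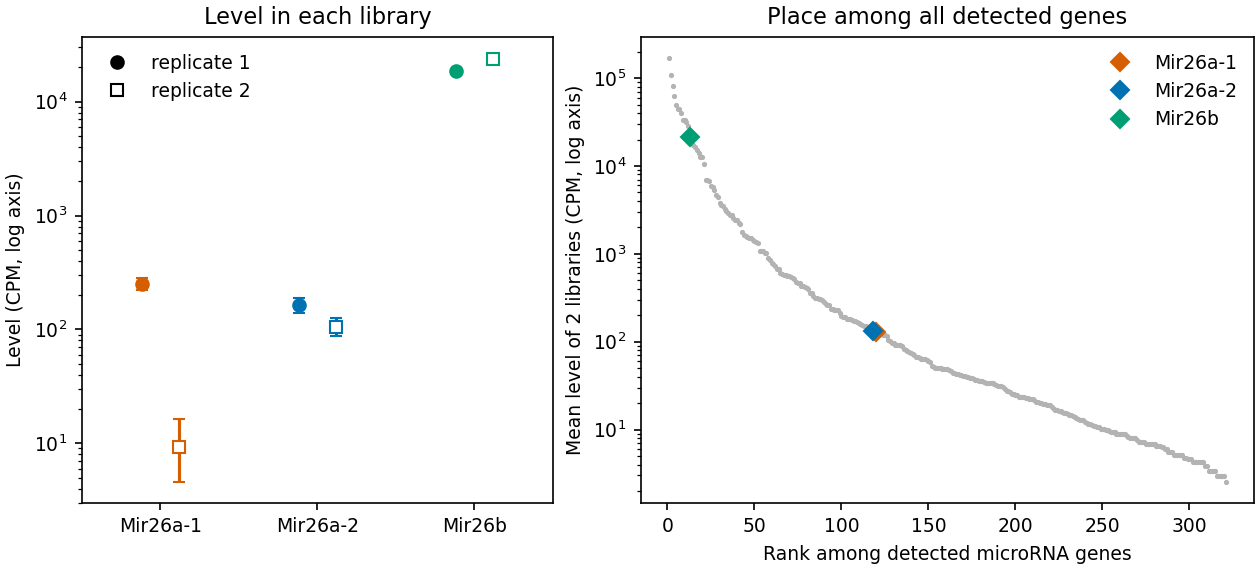
Left, level of each member (CPM, log axis) in replicate 1 (filled circles) and replicate 2 (open squares), with exact 95% intervals for counting error; right, mean level (CPM, log axis) of the 321 detected genes by rank, with the members as diamonds. Mir26b is at rank 13, and Mir26a-2 and Mir26a-1 at ranks 118 and 120.

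Within the family, shares of the counted reads do not depend on how the libraries are scaled. Mir26b took 97.8% (97.6 to 98.0) of 21924 family reads in replicate 1 and 99.5% (99.4 to 99.6) of 28749 in replicate 2. Mir26a-1 took 1.32% (1.17 to 1.48) and 0.0383% (0.0191 to 0.0685). Mir26a-2 took 0.858% (0.740 to 0.989) and 0.435% (0.362 to 0.518). The intervals of each member, for counting error only, do not overlap between the libraries. These shares make up a whole, so they do not move independently, and a rise of Mir26b lowers the others. Mir26a-2 itself did not pass the exact test given below, in which 37.4% of all detected genes differed beyond counting error. There were 45.0 counted reads at Mir26b for each counted read at the 2 Mir26a loci together in replicate 1, and 210 in replicate 2. By the layout of the files, reads of exactly miR-26a-5p are missing from these counts. Mir26b has no stretch of 20 bases in common with another microRNA gene. The shares and ratios are thus of counted reads, and the share of each mature microRNA in the family is not known. The family as a whole held 1.89% of the sense reads in replicate 1 and 2.41% in replicate 2.

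All family reads were sense reads. The opposite strand had 0 reads at each member in both libraries, and with 3 counts as the limit for a count of 0, a level of up to 2.59 and 2.51 CPM would have gone unseen. The same was seen at 305 of the 321 detected genes.

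Next to Mir26b in the order of means stood Mir23b above, at 28588 ± 2948 CPM, whose range did not overlap that of Mir26b, and Mir100 below, at 20313 ± 4344 CPM, whose range did. Mir26b and Mir100 moved opposite ways, as Mir100 had 23385 CPM in replicate 1 and 17241 CPM in replicate 2. Mir26a-2 stood between Mir1247 and Mir378d, and the range of each overlapped that of Mir26a-2. Likeness over both libraries was measured as the distance between pairs of log2(CPM + 1) values, over n = 2 libraries. The 3 genes nearest to Mir26a-2 were Mir451a, Mir541 and Mir181d, at distances of 0.113 to 0.287. The 3 nearest to Mir26b were Mir100, Mir23b and Mir149, at 0.582 to 0.639. Mir26a-1 had no close match: its nearest genes were Mir222, Mir3107 and Mir501, at 2.13 to 2.43, and Mir222 had 68.3 and 20.1 CPM.

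The libraries were then set against each other with TMM scaling by a two-sided exact binomial test over the 321 detected genes. This compares the 2 libraries and not conditions, and the difference has no replicate check. Mir26a-1 was 21.9-fold lower in replicate 2 (95% interval 12.1 to 44.4, exact binomial adjusted p = 9.6e-60). Mir26b was 1.60-fold higher in replicate 2 (1.57 to 1.63), and its exact adjusted p was too small for the software to hold. Mir26a-2 was 1.25-fold lower in replicate 2 (0.995 to 1.59) and did not pass (exact binomial adjusted p = 0.12).

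Of the 3 members, 2 thus differed beyond counting error, in a comparison where 37.4% of all detected genes did. In either direction it was 1 member, against 18.7% of detected genes higher in replicate 1 and 18.7% higher in replicate 2. With 3 members these shares cannot be read against each other. By size, the log2 ratio of Mir26a-1, -4.33, had the largest absolute value of the 321 genes, followed by Mir301 at 4.13 on 6 and 105 reads. Of the detected genes, 90 had a larger absolute log2 ratio than the 0.68 of Mir26b, and 187 a larger one than the -0.32 of Mir26a-2. The median log2 ratio of all detected genes was -0.01, with quartiles at -0.41 and 0.38.

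The outcome for Mir26b depended on the spread allowed between libraries. It passed on counting error and with a fixed dispersion of 0.01 (edgeR exact adjusted p = 0.0084). When the common spread between libraries, a coefficient of variation of 33.8% estimated by edgeR over all detected genes, was added to the test, Mir26b did not pass (edgeR exact adjusted p = 1, against 0.0084 or less in the other settings). Mir26a-1 still did (edgeR exact adjusted p = 1.2e-04, against 3.7e-29 to 3.9e-72 in the other settings), as 1 of 5 genes, beside Mir301, Mir302d, Mir195a and Mir144. This setting was chosen after seeing the data, and the 4 genes beside Mir26a-1 are named for the same reason. The common spread was estimated from the same 2 libraries that were compared, Mir26a-1 included, and not from independent replicates. With total counts only, Mir26a-2 passed too (exact binomial adjusted p = 4.5e-04), at a log2 ratio of -0.63 beside a median of -0.30 over all genes.

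**Figure D3:**
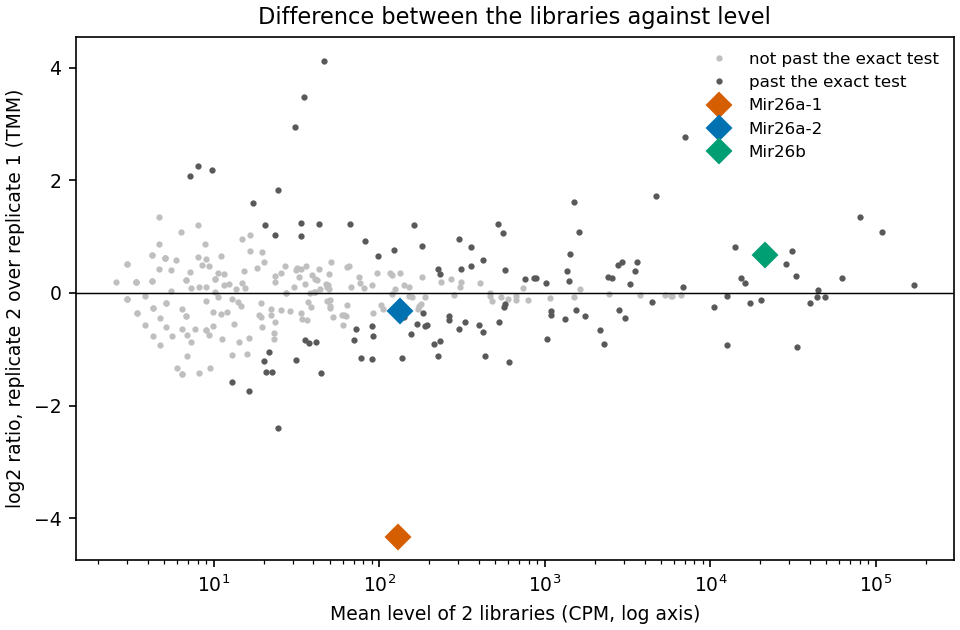
log2 ratio of replicate 2 over replicate 1 after TMM scaling against mean level (CPM, log axis) for the 321 detected genes, dark where past the exact test, with the members as diamonds. Mir26a-1 lies at -4.33, below every other gene, Mir26a-2 at -0.32 and Mir26b at 0.68.

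The Mir26a pair was also set beside other pairs of loci that yield an identical mature strand. RefSeq sequences were found for 290 of the 321 detected genes (90.3%), and 37 of these have a mature strand identical to that of a gene at another place. These 37 genes had a median of 97.0 CPM, and 13 of them (35.1%) passed the exact test, near the 37.4% of all detected genes. The 253 other genes had a median of 43.2 CPM, and 37.9% passed. Of the 37, Mir26a-2 was at rank 15 in replicate 1 and 17 in replicate 2, and Mir26a-1 at rank 13 in replicate 1 and 32 in replicate 2. Only 3 of the 37 reached 1000 CPM, against 46 of the 253. A gene whose copy has no RefSeq match falls among the 253, as Mir1a-1 does, because Mir1a-2 was not matched.

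The detected genes matched to RefSeq formed 15 such pairs. The list is not complete, as Mir1a-1 and Mir1a-2 are missing, and Mirlet7a-1 was not paired with Mirlet7a-2. There were 1.54 reads at Mir26a-1 for each read at Mir26a-2 in replicate 1 and 0.088 in replicate 2, a 17.5-fold change of a ratio that needs no scaling. As a share of the reads at both loci, Mir26a-1 held 60.6% (56.0 to 65.0) in replicate 1 and 8.09% (4.11 to 14.0) in replicate 2. The median change over the 15 pairs was 1.31-fold, and after Mir26a the next was 3.01-fold, for Mir365-1 and Mir365-2, on counts down to 9 reads. Some pairs kept their ratio closely, such as Mir16-1 and Mir16-2, at 3.48 and 3.15, or Mir29b-1 and Mir29b-2, at 3.11 and 3.30. Others moved more, such as Mir24-1 and Mir24-2, at 0.840 and 0.468, or Mir138-1 and Mir138-2, at 1.17 and 2.25. By the layout of the files, reads of exactly miR-26a-5p entered neither Mir26a count, so the mature output of each locus is not known. The same limit touches the other pairs. The Mir26a change rests on 11 reads at Mir26a-1 in replicate 2. It is a description, as the pair was known to differ when the pairs were listed.

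**Figure D4:**
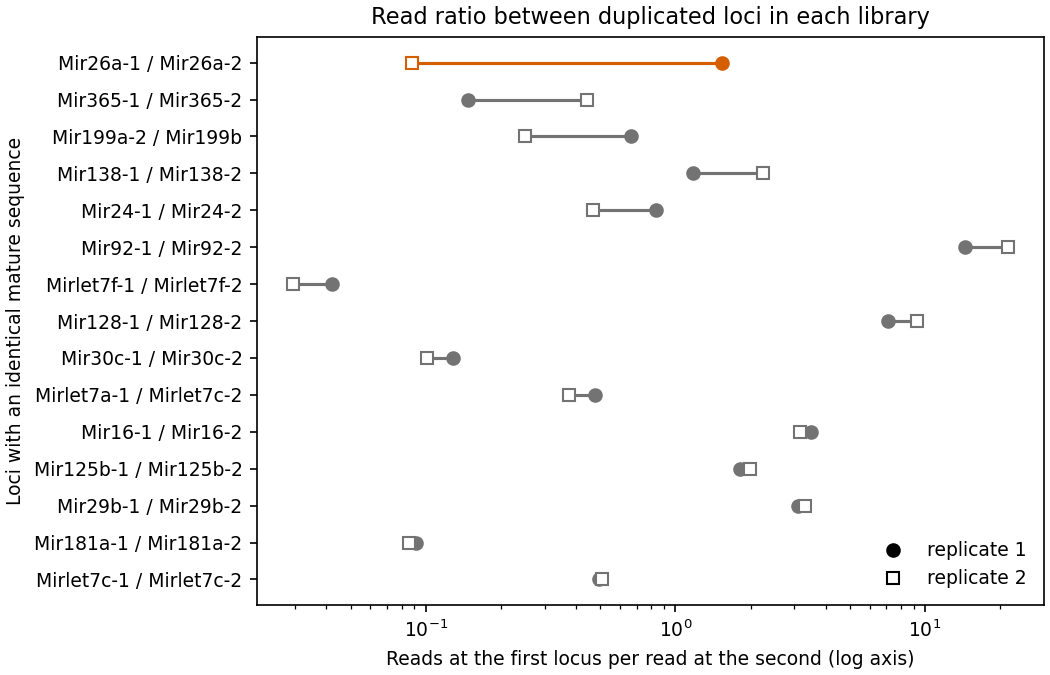
Reads at the first locus per read at the second (log axis), in replicate 1 (filled circles) and replicate 2 (open squares). Shown are the 15 pairs of detected loci found to have an identical mature strand in RefSeq. The Mir26a pair, in orange, goes from 1.54 to 0.088, and the others change by 3.01-fold or less.

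Many microRNA genes lie inside protein-coding genes. The files list 969 on the strand of a protein-coding gene that encloses them, of which 157 were detected, with a median of 51.0 CPM. Among the 157, Mir26b was at rank 7 in replicate 1 and 6 in replicate 2, and Mir26a-2 at 59 and 64. Mir26a-1 was at rank 46 in replicate 1 and 115 in replicate 2.

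Mir26b was then set beside a list of 10 other genes whose microRNAs are known to repress Ezh2, of which 6 were detected. The list is not complete and leaves out the let-7 family, of which Mirlet7g, for example, had 62565 CPM on average. Mir214 had 2701 and 2164 CPM. Mir101b had 772 and 571 CPM, and Mir101a 162 and 142 CPM. Mir138-1, Mir138-2 and Mir137 had means of 29.0, 20.1 and 21.4 CPM. Mir101c had no read. The 3 Mir124a loci had none either, but they have a run of 20 bases in common, so that reads from them may have entered no gene. Mir26b was thus 8.74 times as high as Mir214, the highest of the 10. Mir26a-2 was level with Mir101a in replicate 1, and below it in replicate 2, at 105 against 142 CPM. Mir26a-1 was above Mir101a in replicate 1 and below it in replicate 2. Between the libraries, 2 of the 6 passed the exact test, both higher in replicate 1, which were Mir138-2 and Mir137, against 37.4% of all detected genes in either direction and 18.7% higher in replicate 1. The list's median log2 ratio was -0.23, beside -0.01 over all detected genes. Mir138-1 and Mir138-2, and likewise Mir101a and Mir101b, have a run of 20 bases in common, so the limit on reads aligned to several places touches them too.

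The tissue label was checked against marker microRNAs. Mir206, which is specific to skeletal muscle, had 32948 and 32931 CPM, and 8 of 9 skeletal muscle markers were detected. Mir486 followed at 5152 and 3706 CPM, then Mir499 and Mir208b at means of 423 and 123 CPM. Mir1a-1, Mir1a-2, Mir133a-1 and Mir133b had means of 9.82 to 48.5 CPM and Mir133a-2 was not detected, but these 5 loci hold a run of 20 bases of another gene, so their levels are uncertain. The mean of Mir26b was 0.645 times that of Mir206. Markers of other tissues were also present. The endothelial Mir126a had 80768 and 137673 CPM. The smooth muscle markers summed to 50799 and 42140 CPM, the leukocyte markers to 3122 and 2185 CPM, the erythroid markers to 163 and 153 CPM and the epithelial markers to 115 and 84.6 CPM. The heart marker Mir208a had 11.2 and 18.4 CPM and the liver marker Mir122 10.4 and 10.9 CPM. The 6 neuronal loci, of Mir124a and Mir9, had 1 read in all, but each holds a run of 20 bases of another gene, so this count does not bear on neuronal RNA. With TMM and the exact binomial test, Mir133a-1, Mir486, Mir145a and Mir150 passed as higher in replicate 1, and Mir206, Mir499, Mir208b, Mir126a, Mir143, Mir144 and Mir200c as higher in replicate 2, while by unscaled CPM Mir206 and Mir143 were not higher there. Members of 1 list thus went both ways for skeletal and smooth muscle. Of the erythroid markers, Mir144 had 9 and 65 reads and Mir451a 180 and 117, and of the epithelial ones Mir200c had 3 and 16 and Mir203 130 and 84. Whether the makeup of the tissue samples had a part in the differences at the Mir26 loci was not tested.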

How the data were processed

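The authors deposited raw read counts per microRNA gene for 1 library a file, on mm10 with GENCODE M21, per the deposited text descriptions. The sources used here name no aligner. The files have no header; the layout is that of STAR gene counts, and column 3 was taken as the sense strand. The 4 lines of totals, which name no gene and together hold 81.1% and 82.0% of the reads, entered no total and no test. All 2202 gene IDs matched GENCODE M21. The members and lists were chosen with earlier results of these data known.

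CPM used the sense total. Genes were detected at 2 CPM in both libraries. TMM factors from edgeR 4.0.16 (R 4.3.3) scaled the ratios, with a pseudocount of 1 CPM. Each of the 321 detected genes was given an exact conditional binomial test with Benjamini-Hochberg adjustment at 0.05. It was tested beforehand on simulated data with counting error only, which do not bear on the wider spread between these libraries. Without replicates on either side a quasi-likelihood test has no degrees of freedom. Folding used RNAfold 2.7.2; the rest used Python 3.11.15 and scipy 1.17.1. RefSeq sequences were matched by symbol or coordinates. Genes named were the members, their 3 nearest genes in level, and the Ezh2 and marker lists; others were named after their values were seen. Alternatives were the column of both strands, 3 denominators, total counts, DESeq2 1.42.0 size factors, 2 filters, a pseudocount of 0.1 CPM, edgeR exact tests at 2 dispersions, and each replicate alone.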

Additional observations from a re-analysis of the deposited data

How the results depend on the processing

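The log2 ratio of Mir26a-1 kept its direction and passed in each setting that gave a value, from -4.28 without a filter to -4.62 with total counts only; the filter of 10 CPM left this gene out. Mir26b kept its direction, from 0.37 with total counts only to 0.72 without a filter, but at the common dispersion its ratio of 0.68 did not pass. Mir26a-2 kept its direction and passed only with total counts only, at -0.63. The count of differing genes, 120, was 53 at a dispersion of 0.01 and 5 at the common dispersion, since both allow for spread beyond counting error; other settings gave 110 to 149. With total counts only, 35 were higher and 114 lower in replicate 2.

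Levels follow the denominator by construction. With the column of both strands, Mir26b had 30368 CPM and Mir26a-2 189 CPM; over all reads of the library 3909 and 24.8 CPM; over genes without a run of 20 bases held by another gene 28503 and 180 CPM. Without the most abundant gene in the denominator Mir26b had 25557 CPM. Alone, the replicates gave 18530 to 23976 CPM for Mir26b, 105 to 162 CPM for Mir26a-2 and 9.22 to 250 CPM for Mir26a-1. In the same order, the shares of counted family reads were 97.8% to 99.5%, 0.435% to 0.858% and 0.0383% to 1.32%. Depth limits Mir26a-1 in replicate 2, where 11 reads were counted.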
